A study of Eohaustorius estuarius with 16 samples.

Results

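The 100 contigs whose values differed least from sample to sample were examined in whole bodies of the amphipod Eohaustorius estuarius. A contig is an assembled transcript sequence of this species, and each was measured by 1 probe on a one-colour Agilent array. The contigs were chosen from the authors' value table, on the log2 scale, as those with the lowest standard deviation (SD) over 15 samples. Candidates had to be well above background on all 16 arrays, meaning that the scanner software set that flag on at least 50% of the probe's spots. Of 8507 contigs on the array 5106 met this condition, so the 100 members were 1.96% of the candidates. The SD that chose them was taken over controls and exposed samples together, so a small difference between the groups was built into the choice.

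The study compared microarray results between laboratories, and the arrays used here were those of laboratory F, where the RNA was also extracted. The labels give 8 control and 8 cyfluthrin samples, all of whole bodies after 10 days in sediment. Controls were kept in sediment spiked with solvent, and the exposed animals in sediment with a nominal 1.6 µg/kg of cyfluthrin, a pyrethroid insecticide. The labels give no age, sex or container, and no number of animals per sample, so the spread between samples may be technical in part. Cyfluthrin replicates 5 and 6 differed by less than the scanner software's own error estimate and were counted as 1 sample. The squared difference between their arrays was 0.870 times what that error gives, and 3.32 times for the next closest pair. The groups therefore held 8 control and 7 cyfluthrin samples, and these numbers limit the precision of every value.

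Transcripts that keep a steady level across treatments serve as references in expression studies, because a change in any other transcript is read against them. Transcripts of ribosomal proteins, translation elongation factors and cytoskeletal proteins are often tried for this use, and none is steady in every tissue and treatment. Pyrethroids hold voltage-gated sodium channels of nerve cells open, and crustaceans are among the animals most sensitive to them. The steadiness of a transcript on an array also depends on how the arrays are scaled to each other. The files used here pair no contig with a gene or a probe sequence, so the members are given by number and no function could be read from them.

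The members varied little in the authors' table. Their SD ran from 0 to 0.191 with a median of 0.171, against a median of 0.434 over the 5106 candidates. The distance between the highest and the lowest of the 15 samples had a median of 1.51-fold among members and 2.96-fold among candidates. The widest member by this measure, contig_7387, spanned 1.82-fold. The threshold did not fall in a gap. The members ranked 99 and 100, contig_7938 and contig_2823, both had an SD of 0.1907. The next contigs outside, contig_759 and contig_4808, had SDs of 0.1914 and 0.1923. Only 28 members had an SD below 0.15, and 2 had an SD below 0.1.

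**Figure D1:**
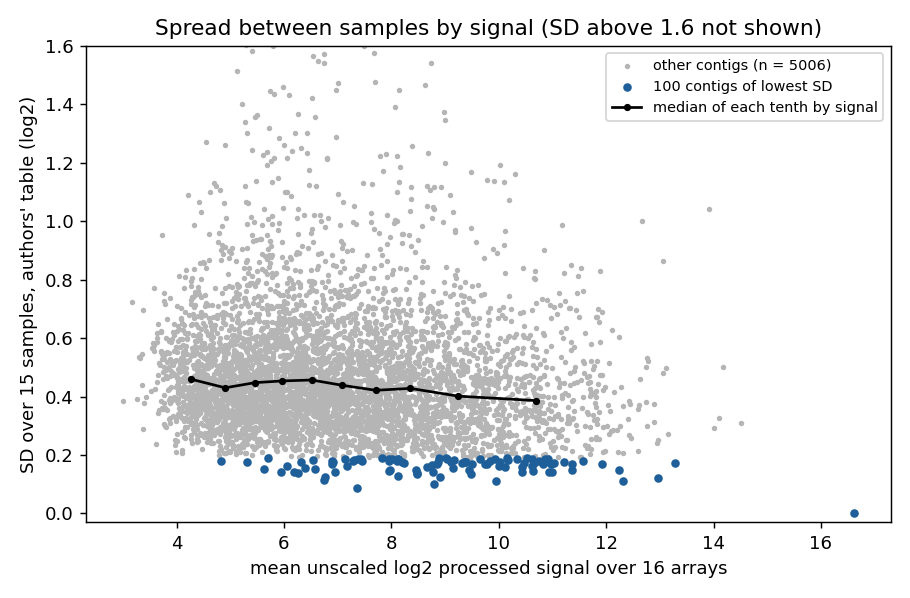
Each point is a contig well above background on all arrays, placed by its mean unscaled log2 processed signal over 16 arrays (horizontal axis) and its SD over 15 samples in the authors' table (vertical axis, log2 units); the black line joins the medians of 10 groups of like size by signal. The 100 contigs of lowest SD, in blue, lie at or below 0.191 at all signals and make up a larger share of the bright probes than of the dim ones, and contig_42 stands alone at 0 on the far right.

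The contig with the lowest SD, contig_42, had the value 0 in all 15 samples of the authors' table. It gave the highest signal of all contigs on each of the 16 arrays. Quantile normalization gives every array the same set of values, so a contig that always ranks first receives 1 fixed value. The scanner signal itself was not fixed across arrays. On slide 1 the unscaled log2 signal of contig_42 ran from 16.65 to 17.71 with no saturated spot. On slide 2 it ran from 15.88 to 15.91, and its spots were saturated on all 8 arrays. Per the file headers the saturation value of the scans was between 650795 and 657666 on the arrays of slide 1 and 65529 on those of slide 2. With each array scaled to its 75th percentile the SD of contig_42 was 0.830, which ranked 4778 among the 5106 candidates. The scaled values ran from 9.28 to 10.50 on slide 1 and from 8.09 to 8.97 on slide 2. This SD thus includes a step between slides with unlike saturation values, and it is not read as variability of the transcript. It was the only candidate with a saturated spot, and its level on slide 2 is known only as a lower bound.

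The next 5 members by SD ranked between 1 and 34 among the candidates with that scaling. Contig_4329 was lowest after contig_42, with an SD of 0.0889 in the authors' table and 0.0959 with 75th-percentile scaling, where it ranked 1. Its values, centred on the contig's median, ran from -0.14 to 0.14 with a median of 0 in controls and from -0.18 to 0.06 with a median of -0.04 in cyfluthrin samples. Control replicate 4 was its highest sample and cyfluthrin replicate 1 its lowest. The rank of its signal among all 8507 contigs stayed between 2056 and 2341 on the 16 arrays.

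Contig_922 and contig_60 had SDs of 0.101 and 0.110, and ranked 10 and 7 with 75th-percentile scaling. Contig_922 ran from -0.10 to 0.18 (median -0.0047) in controls and from -0.06 to 0.23 (median -0.0042) in cyfluthrin samples, with the averaged replicates 5 and 6 at the top. Contig_60 ran from -0.10 to 0.05 in controls, with a median of 0, and from -0.27 to 0.20 (median 0.0050) with cyfluthrin. Its spread lay mostly in the exposed samples, where its SD was 0.157 against 0.0528 in controls, with cyfluthrin replicate 2 lowest and replicate 3 highest.

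Contig_4242 had an SD of 0.111 and was bright, with signal ranks between 30 and 61. With 75th-percentile scaling its SD was 0.170, which ranked 34. Quantile normalization gives equal ranks equal values, and its value was -0.050 in both control replicate 8 and cyfluthrin replicate 1. Contig_4242 ran from -0.18 to 0.23 (median 0.03) in controls and from -0.22 to 0.03 (median -0.01) in cyfluthrin samples. The averaged replicates 5 and 6 lay below the other exposed samples. Contig_8045 had an SD of 0.113 and ranked 2 with 75th-percentile scaling. It ran from -0.17 to 0.02 (median -0.13) in controls and from -0.04 to 0.16 (median 0.07) in cyfluthrin samples, and the groups overlapped, with control replicate 3 above cyfluthrin replicate 2.

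Bright probes were frequent among the members in the authors' table. The candidates were split by mean signal into 5 groups of nearly equal number. In the brightest group 57 of 1022 contigs were members (5.58%), and in the dimmest 1 of 1021 (0.0979%). The groups between held 6, 17 and 19 members from dim to bright. This skew depended on the scaling. The 100 contigs of lowest SD numbered 7, 11, 21, 20 and 41 from the dimmest to the brightest group with the 75th percentile, 18, 14, 24, 22 and 22 with the array median, and 15, 30, 16, 18 and 21 with E1A. In the authors' table the median SD of all candidates was 0.444 in the dimmest group and 0.393 in the brightest. With the 75th percentile these were 0.480 and 0.410, with the array median 0.439 and 0.449, and with E1A 0.449 and 0.539. The signal of a probe also depends on its sequence, so brightness is not read as abundance here. Contigs with 2 spots, whose values are averages, were less frequent among members than among candidates. Of the members 62 had 2 spots and 38 had 1, against 73.7% and 25.9% of the candidates. None of the 21 candidates with 10 or more spots was a member, and the lowest of them ranked 477 by SD. Members were 1.96% of all candidates, so nothing is read from the absence of members among these 21.

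Repeatability was read in 2 measures, and over all candidates both were lower in the members. Noise of the same spots and arrays also enters the SD that made the choice, so these values are a description. The first was the difference between the arrays of cyfluthrin replicates 5 and 6, of which the choice used only the mean. Its median size was 0.0605 log2 units in members and 0.105 in the other 5006 candidates. In the brightest group it was 0.0607 in the 57 members and 0.0695 in the other 965. The second was the difference between the spots of a contig within an array, for contigs with 2 spots. The median over the 62 such members was below that of the 3702 others on all 16 arrays, with a middle value of 0.0701 log2 units against 0.0847. In the brightest group alone the 33 members were below the 687 others on 5 of the 16 arrays, with middle values of 0.0658 and 0.0611. The lower spot difference of the members was thus not seen within the brightest group.

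The samples did not contribute alike to the spread of the members. The median distance of the members from their own means was between 0.0856 and 0.158 in controls and between 0.0915 and 0.124 in cyfluthrin samples. Control replicate 7 was highest at 0.158, and it was the farthest sample for 22 of the 99 members with an SD above 0. Control replicate 1 and cyfluthrin replicates 1 and 2 were each farthest for 11. Control replicate 7 also lay farthest out over all candidates, with a median distance of 0.572 against 0.184 to 0.336 in the other controls. It had the lowest 75th percentile of signal, 6.15 against 6.89 to 7.60, and its part in the spread of the members was not tested beyond leaving it out. Without it 61 of the 100 members were still among the 100 of lowest SD. Leaving out any other array kept between 81 and 96.

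**Figure D2:**
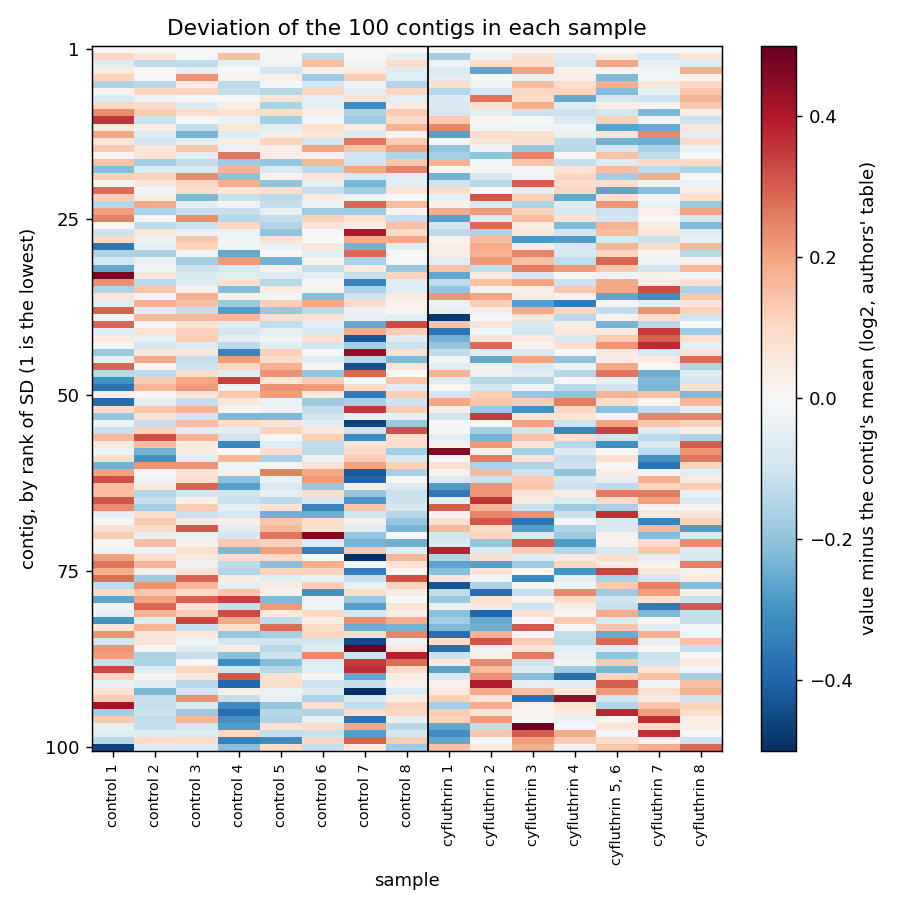
Rows are the 100 contigs in order of SD, columns the 15 samples with controls left of the black line, and colour the log2 value in the authors' table minus the contig's mean, cut at 0.5 on both sides. Control replicate 7 holds the largest deviations, and the top row, contig_42, is 0 throughout.

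Over the 4851 pairs of the 99 members with an SD above 0, the correlation across the 15 samples had a median of 0.025, and 90% of pairs lay between -0.48 and 0.55. These values share the samples and the scaling, and the members were chosen for low SD after that scaling, so nothing is read from them about joint movement before it. The first principal component of the members held 19.1% of their variance and the second 13.6%. The largest weight on the first, 0.70, was that of control replicate 7. The components were taken in the authors' table alone. On the second component, whose sign was set to make the mean cyfluthrin weight positive, the 7 cyfluthrin samples had weights from 0.06 to 0.33. Of the controls 7 had weights from -0.51 to -0.09, and replicate 7 stood at 0.22.

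The difference between exposed and control animals was small in the members, as the choice made likely. In the authors' table the cyfluthrin mean was higher in 49 members, lower in 50 and equal in contig_42. The differences ran from -0.23 to 0.26 on the log2 scale, at most 1.20-fold, with a median size of 0.081 against 0.34 over the candidates. In 60 members the size was below 0.1 and in 9 above 0.2. The share of a contig's variance that lay between the groups had a median of 7.33% in members and 18.4% in candidates.

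In the authors' table the members with the highest cyfluthrin means relative to controls were contig_1516 and contig_2823. The value of contig_1516 was -0.13 ± 0.13 (SD, n = 8) in controls, between -0.39 and 0.05 with a median of -0.12. It was 0.13 ± 0.078 (SD, n = 7) in cyfluthrin samples, between -0.00078 and 0.24 with a median of 0.13. The groups overlapped, and the difference of 0.26 was 0.26 on slide 1 and 0.25 on slide 2. Contig_2823 stood at -0.17 ± 0.17 (SD, n = 8) in controls, between -0.51 and 0.04 with a median of -0.14. In cyfluthrin samples it stood at 0.087 ± 0.097 (SD, n = 7), between -0.07 and 0.23 with a median of 0.10. The groups overlapped, control replicate 1 was its lowest sample, and the difference of 0.26 became 0.21 without that replicate.

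In the same table the lowest cyfluthrin means relative to controls were those of contig_2023 and contig_7928. Their order and direction depended on the scaling. With the 75th percentile their differences were -0.17 and -0.13 and other members lay lower, and with the array median they were 0.01 and 0.05. Contig_2023 stood at 0.14 ± 0.082 (SD, n = 8) in controls, between -0.0022 and 0.24 with a median of 0.16. In cyfluthrin samples it stood at -0.091 ± 0.071 (SD, n = 7), between -0.17 and 0.0022 with a median of -0.11. The groups overlapped only through control replicate 4 and cyfluthrin replicate 2, and the difference of -0.23 was -0.19 on slide 1 and -0.27 on slide 2. Contig_7928 stood at 0.10 ± 0.14 (SD, n = 8) in controls, between -0.11 and 0.36 with a median of 0.11. Its exposed samples were at -0.096 ± 0.14 (SD, n = 7), between -0.29 and 0.12 with a median of -0.12. The groups overlapped, control replicate 7 was the highest sample, and the difference was -0.20.

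The groups were compared with limma over all 6852 contigs that were well above background on at least 8 arrays, with each array scaled to its 75th percentile. At a Benjamini-Hochberg adjusted p below 0.05, 2 of the 100 members were called, against 30% of all tested contigs. Both were higher with cyfluthrin, as were 7.47% of all tested contigs, and 0 members were lower, against 22.5%. These were contig_1516, with a limma adjusted p of 0.037, and contig_2823, with 0.039. In the authors' table limma gave them an adjusted p of 0.066 and 0.094. There it called 0 members, against 20.7% of all tested contigs. At an unadjusted limma p below 0.05 these values gave 7 members, and 2462 of the 6852 tested contigs. The groups' values overlapped in all 100 members in both sets of values. They did not overlap in 6.13% of the tested contigs with 75th-percentile scaling, or in 4.97% of the candidates in the authors' table. Without overlap were 1 member with quantile normalization, 1 with a 75th percentile over the candidates, 4 with the array median and 6 with E1A. Of the 6852 tested contigs the same held for 302, 444, 271 and 330 in that order. The choice of members used these samples and this contrast, so nothing is read from the low counts. In limma the error of a contig is drawn toward that of all contigs. For contig_1516 in the authors' table that error was 0.0965, while its own samples gave a standard error of 0.0549. The count of called members ranged from 0, without control replicate 1 among others, to 3, without control replicate 7, when single arrays were left out.

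Each of the 2 slides carried 4 control and 4 cyfluthrin arrays. The median size of the members' group difference was 0.092 on slide 1 and 0.12 on slide 2, and 66 of the 99 members with an SD above 0 (66.7%) had the same direction on both, against 79.4% of the candidates. The alike replicates 5 and 6 had 1 array on each slide, so the slides share that sample. The mean over slide 2 minus that over slide 1 ran from -0.22 to 0.19 in members, with a median size of 0.046 against 0.14 in candidates. Column 3 of the slides held 4 cyfluthrin arrays and 0 controls, so position and group are in part confounded. With the slide as a block and the array of replicate 5 for the alike pair, limma called 2 members higher and 1 lower. With the array of replicate 6 it called 0 higher and 1 lower, so that the calls of contig_1516 and contig_2823 were lost. With the slide column as a covariate it called 0 either way, on slide 1 alone 0, and on slide 2 alone 0 higher and 1 lower. Of the 6852 tested contigs, the slide block called 2165 when replicate 5 stood for the pair and 1888 when replicate 6 did. The column covariate called 1148 and 753 in the same order. Slide 2 alone called 976 and slide 1 alone 0, so nothing is read from the 0 members on slide 1.

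How steady the members were, and on which side of 0 they stood, depended on the scaling between arrays. Before scaling, the controls had a mean log2 signal over the 100 members of 8.66 ± 0.41 (SD, n = 8) and the cyfluthrin samples one of 9.37 ± 0.24 (SD, n = 7), and all 100 members had a higher cyfluthrin mean, of which contig_42 has no settled direction because of its saturated spots. Controls ran from 7.77 in replicate 7 to 9.12 in replicate 5, and cyfluthrin samples from 8.97 in replicate 1 to 9.73 in replicate 7. The member mean was 0.70 log2 units higher with cyfluthrin, and so was the 75th percentile of the arrays. After the 75th percentile was subtracted the controls had a member mean of 1.62 ± 0.075 (SD, n = 8), and the cyfluthrin samples one of 1.62 ± 0.075 (SD, n = 7). In whole-body RNA, a difference in the number of cells of a type and one in the RNA per cell cannot be told apart.

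**Figure D3:**
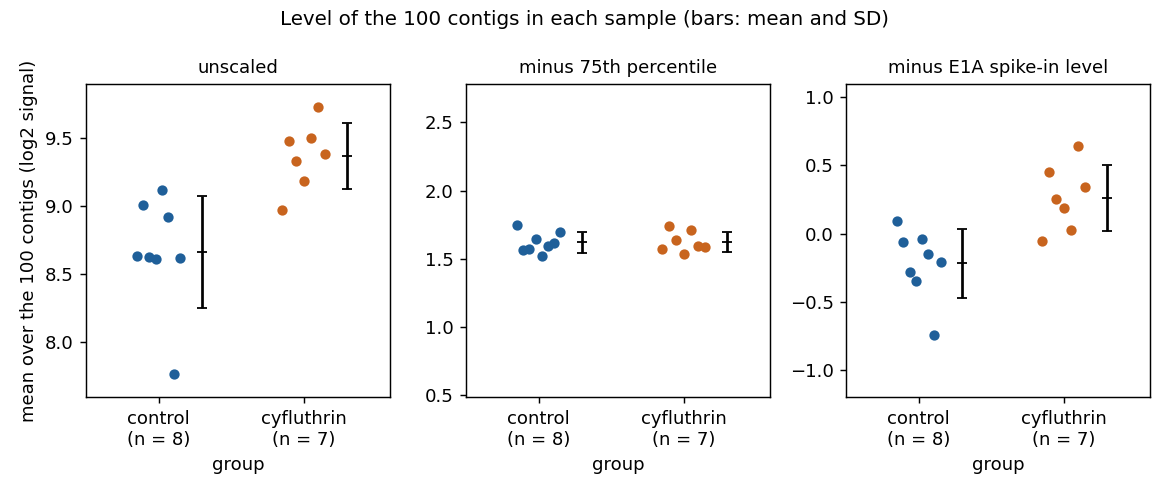
Points are samples, with the mean log2 signal over the 100 contigs on the vertical axis, before scaling (left), minus the array's 75th percentile (middle) and minus the E1A spike-in level (right); black bars give mean and SD, and the 3 panels span the same height. The samples lie between 1.52 and 1.75 in the middle panel, and spread from -0.74 to 0.65 in the right one.

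The E1A probes report Agilent's spike-in transcripts, which go into the labelling reaction from outside the sample. Of the 10 such probes, 7 were well above background on all arrays. Their level was 0.22 log2 units higher in cyfluthrin arrays, less than the members' 0.70. Relative to E1A the member mean was -0.22 ± 0.25 (SD, n = 8) in controls, from -0.74 to 0.09, and 0.26 ± 0.24 (SD, n = 7) in cyfluthrin samples, from -0.05 to 0.65. The groups overlapped, with the averaged replicates 5 and 6 and replicate 1 lowest among the exposed samples. With E1A scaling 99 members had a higher cyfluthrin mean, with a median difference of 0.48 against 0.32 over the candidates. The remaining member was contig_42, whose saturated spots on slide 2 leave its direction unknown. Limma then called 48 members higher with cyfluthrin and 0 lower, against 20.4% and 2.23% of the tested contigs, or 22.7% in both directions. The files do not tell whether each sample received the same amount of spike-in.

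Scaling to the array median gave values between these. The median difference of the members was 0.19 against 0.025 in the candidates, 96 members had a higher cyfluthrin mean, and limma called 11 higher and 0 lower, against 11.3% and 10.7% of the tested contigs, or 21.9% in both directions. With 75th-percentile scaling 51 were higher and 49 lower, and the median was 0.0061 against -0.16. The order of the members by difference is the same with the 75th percentile, the array median and E1A by construction, since each shifts all contigs of an array by 1 amount. When the mean of the members themselves was used to scale the arrays, which is circular for the members, limma called 521 of all tested contigs higher and 1617 lower. With the 75th percentile it called 512 and 1543. Of the members 1 was called with the circular scaling, against 31.2% of the tested contigs. The split of all calls moved with the scaling, to 773 higher and 731 lower with the array median, 585 and 839 with quantile normalization, 585 and 834 in the authors' table, and 1400 and 153 with E1A. With normexp 737 of 1305 calls were lower. With quantile normalization 0 members were called, against 20.8% of the tested contigs. At an unadjusted limma p below 0.05 that setting gave 6 members, and 2466 of the 6852 tested contigs. Over the whole set tested the median difference stood at -0.16 with the 75th percentile, 0.019 with the array median, -0.026 with quantile normalization and 0.31 with E1A, so each direction is relative to its scaling.

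**Figure D4:**
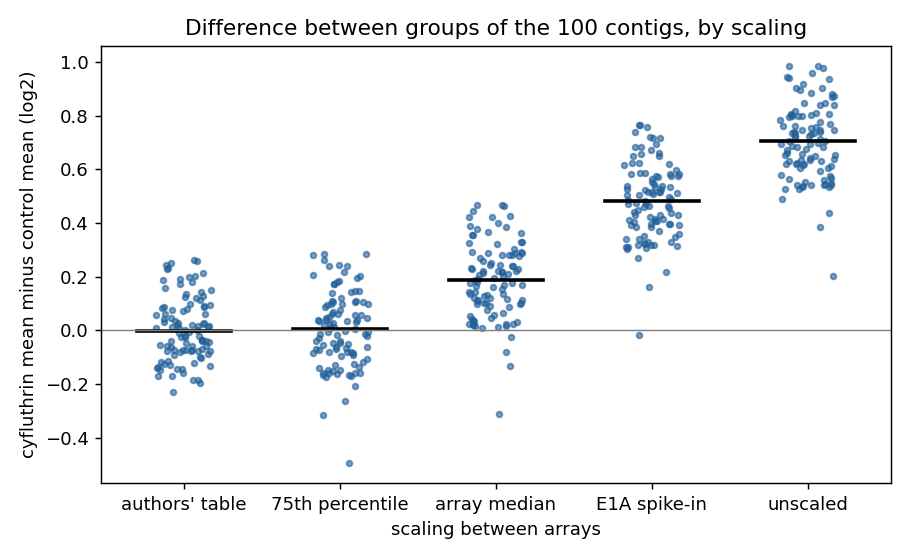
Each point is 1 of the 100 contigs and the vertical axis its cyfluthrin mean minus its control mean in log2 units, for 5 ways of scaling the arrays; black lines are medians. The medians are -0.0026 in the authors' table, 0.0061 with the 75th percentile, 0.19 with the array median, 0.48 with E1A and 0.71 without scaling.

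Which contigs counted as the steadiest also changed with the scaling. With quantile normalization of the scanner files 99 of the 100 members were among the 100 of lowest SD, with 75th-percentile scaling 71, with the array median 32 and with E1A 0. The median SD of the members was 0.171, 0.186, 0.240 and 0.386 in that order, while that of all candidates was 0.434, 0.446, 0.449 and 0.505. With E1A scaling 98 members lay below the median SD of the candidates, and without scaling 79 did. The members were chosen for a low SD on these same arrays, so these counts are a description. Among the 100 of lowest SD under all of quantile normalization, 75th-percentile and median scaling were 30 members. With normexp background correction and an offset of 50, 90 of the 100 contigs of lowest SD came from the dimmest group, and 8 members were among the 100.

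Steadiness was also listed in each group by itself, from the 100 candidates of lowest SD in controls alone and in cyfluthrin samples alone. These lists share no sample, and had 8 contigs in common (8% of each list), where a list of 100 holds 1.96% of the candidates. They share the probes and the joint normalization, which puts contig_42 in both. Of the contigs steadiest in controls 54 were in the brightest group, and of those steadiest in cyfluthrin samples 36, so 1.96% is not a chance level. The members made up 37 of the first list and 27 of the second, but their choice used the same samples, so these counts are a description. The 100 contigs steadiest in controls had a median SD of 0.211 in cyfluthrin samples, against 0.322 over the candidates, and 92 lay below that median. The 100 steadiest in cyfluthrin samples had a median SD of 0.287 in controls, against 0.397, and 78 lay below that median. Ranked within their own brightness group, these contigs had a median percentile of SD in the other samples of 22.3 and 21.0. Across the 5106 candidates the SDs in the groups had a Spearman correlation of 0.37, where all points share the probes and the joint normalization.

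**Figure D5:**
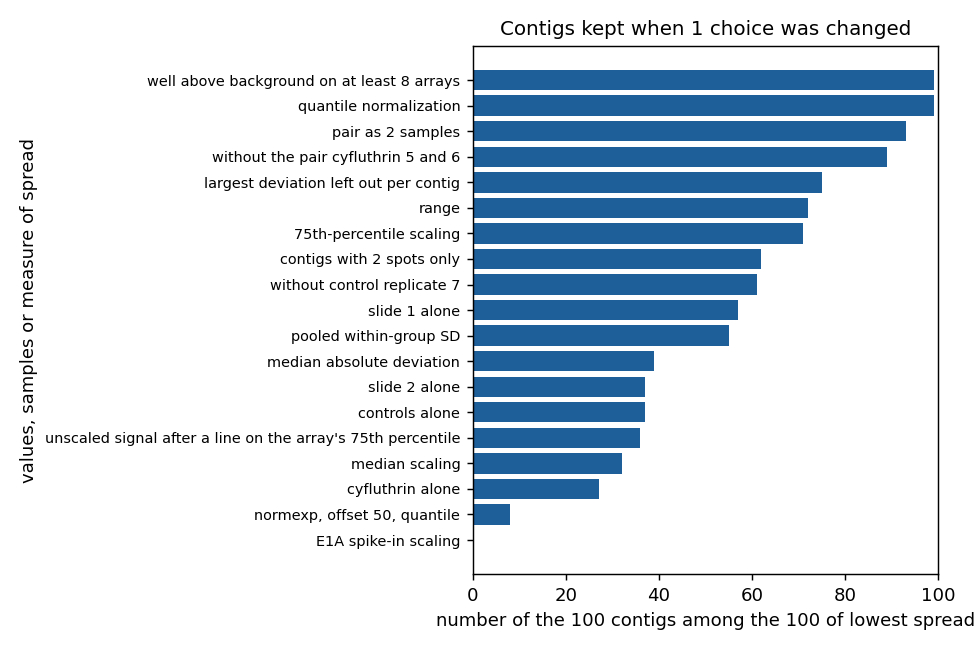
Bars give how many of the 100 contigs remained among the 100 of lowest spread (horizontal axis, 0 to 100) when the values, the samples or the measure of spread was changed (vertical axis). The number runs from 99 with a looser filter on background or with recomputed quantile normalization to 0 with E1A scaling.

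The measure of spread mattered as well. By the range over the 15 samples 72 members were among the 100 lowest, by the pooled SD within groups 55, and by the median absolute deviation 39. On slide 1 alone 57 members were among the 100 of lowest SD and on slide 2 alone 37. The lists from the separate slides had 13 contigs in common (13% of each list), where a list of 100 holds 1.96% of the candidates and the alike pair has an array on both slides. Contig_42 is in both through the normalization, and 43 and 41 contigs of the lists from slides 1 and 2 were in the brightest group.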

How the data were processed

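The members and the settings were chosen with earlier results of these data known. Per the file headers, the intensity columns as deposited hold background-subtracted and detrended spot signals from Agilent Feature Extraction 11.5.1.1, not scaled between arrays; the submitters' processing notes give version 9.1. The authors' deposited log2 table was set against the scanner files. It was close to quantile-normalized spot means centred on each probe's median over 16 arrays (correlation 0.986 for control replicate 4, 0.999 for control replicate 1 and higher for the others), with column medians from -0.11 to 0.12. Scale and centring are inferred, and the direction is that of expression.

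Outlier spots were left out, log2 signals of a contig's spots averaged, and the 75th percentile of the non-control spots of an array subtracted. Groups were compared with limma 3.58.1 (lmFit, eBayes) in R 4.3.3, Benjamini-Hochberg adjustment and a threshold of 0.05. In 6 tested contigs, none a member, the fit dropped missing values. The steps were tested on simulated data. Python 3.11.15 (matplotlib 3.10.9) drew the figures. The contigs named were the 6 of lowest SD, ranks 99 and 100, the next 2 contigs outside, and the 2 highest and 2 lowest group differences; contig_7387 was added after its value was seen. No member had 10 or more spots.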

Additional observations from a re-analysis of the deposited data

Results flagged for a closer look

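Samples far from the rest of their group were looked for in 36 sets of values, of which chance marks about 1 in 20, and 2 were found. Control replicate 7 had an unscaled mean signal of the members of 7.77, and the other controls lay between 8.61 and 9.12. The value of contig_4242 was -0.22 in the averaged cyfluthrin replicates 5 and 6, against -0.05 to 0.03 in the other cyfluthrin samples.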

How the results depend on the processing

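The number of members called was 2 in the 75th-percentile fit. It was 0 in the authors' table and with quantile normalization, 4 with a 75th percentile taken over the candidates alone, 6 with normexp (4 higher, 2 lower), 11 with median scaling, 48 with E1A scaling and 1 with scaling to the members. It was 0 with the slide column as a covariate, 1, lower, with the slide as a block and replicate 6 standing for the alike pair, and 0 and 1, lower, on slides 1 and 2 alone. It was 0 without the pair and ranged from 0 to 3 when single arrays were left out. Over all 6852 tested contigs 2055 were called, but 1305 with normexp, 1148 and 753 with the column, 949 and 974 with the replicate number, and 0 and 976 on slides 1 and 2 alone (1526 and 2436 at an unadjusted limma p below 0.05). The same count was 1419 in the authors' table, 1424 with quantile normalization, 2026 with the candidates' percentile, 1504 with median scaling and 1553 with E1A. Scaling to the members gave 2138, the slide block with replicate 6 gave 1888, and leaving out the pair 1753. With single arrays left out the count ran from 1527 to 2116. Replicate numbers are shared between the groups in the labels. Each contig's group mean was subtracted, and the remaining deviations of same-numbered samples correlated from -0.67 to 0.47, with 3 of 8 above 0.1. By these deviations 0 of 8 controls correlated best with their own number. With the replicate block 0 members were called.

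Of the 100 members, 32 were among the lowest by median scaling, 0 by E1A scaling, 8 by normexp, 39 by median absolute deviation and 55 by pooled SD within groups. The number was 37 in controls alone, 27 in cyfluthrin samples alone, 57 on slide 1, 37 on slide 2 and 36 when a line on the array's 75th percentile was taken out of the unscaled signal. With only 2-spot contigs it was 62, which is all members that could enter. It ranged from 61, without control replicate 7, to 96 when single arrays were left out. The median SD of the members, 0.171, was 0.386 with E1A scaling and ranged from 0.161 to 0.174 with single arrays left out. The causes were not tested. The slides alone, the pair left out, the line and the largest deviation left out were chosen after seeing the data.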
